A study of Homo sapiens with 3 samples.

Results

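The genes described here are 10 genes of the NRF2 pathway and antioxidant defence, NFE2L2, KEAP1, HMOX1, NQO1, GCLC, GCLM, TXNRD1, TXN, SRXN1 and OSGIN1, chosen by gene name among the 58735 genes of an RNA-seq table. All 10 were found, each as 1 gene. RNA had been sequenced from the human gastric cancer line HGC-27, with 2 libraries labelled shUSP16 (shUSP16-1 and shUSP16-2), which carried a short hairpin RNA against the deubiquitinase gene USP16, and 1 library labelled shControl, with genotype WT and a library name that calls it Scramble. The labels give a serum-supplemented medium for all 3 libraries, and their protocols also list, for all 3, feeding with dexamethasone and isobutylmethylxanthine and later with insulin. It is not stated if the numbers 1 and 2 stand for distinct hairpins or for repeats, nor if the cultures were separate, so a p-value here reflects no more than how these libraries differ, which can be technical.

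NRF2, the protein product of NFE2L2, is a transcription factor that the adaptor protein KEAP1 holds in the cytoplasm and hands to a CUL3 ubiquitin ligase for degradation. Oxidants and electrophiles modify cysteines of KEAP1, NRF2 then escapes degradation, enters the nucleus, pairs with small MAF proteins and binds antioxidant response elements near its target genes. Since this control acts mainly on the protein, NFE2L2 mRNA does not by itself report NRF2 activity, and its target genes are commonly read in its place. Many gastric and other tumours carry raised NRF2 activity, which is tied to resistance to oxidative stress and to drugs.

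Facts of the libraries come first. Reads recovered from the deposited FPKM (fragments per kilobase of exon, scaled to a library total) summed to 29530581 in shUSP16-1, 31187845 in shUSP16-2 and 30131136 in shControl. USP16 had 4.29 FPKM in shUSP16-1, 5.98 FPKM in shUSP16-2 and 6.28 FPKM in shControl, and the targeted mRNA was lower by more in shUSP16-1. With the authors' totals the ratio of USP16 reads to shControl was 0.683 (exact binomial 95% interval 0.621 to 0.749) in shUSP16-1 and 0.952 (0.875 to 1.04) in shUSP16-2, and with sums of reads 0.639 (0.582 to 0.702) and 0.876 (0.805 to 0.953). limma did not call USP16 (log2 difference -0.26, SE 0.20, adjusted p = 0.564), nor did voom or any other setting tried. Directions below therefore rest on the labels of both libraries. Of the defining markers of the labelled tissue, 0 of 7 gastric mucosa genes and 0 of 5 epithelial genes, KRT8, KRT18, EPCAM and CDH1 among them, reached a mean of 1 FPKM, and KRT19, MUC5AC, TFF1 and TFF2 had 0 reads in all 3 libraries. VIM and ZEB1 of 4 mesenchymal markers did, as did all 3 fibroblast markers (COL1A1, COL1A2 and DCN), whose summed level was 86.7 FPKM in shUSP16-1, 102 FPKM in shUSP16-2 and 67.0 FPKM in shControl; the part of this in the results below was not tested. Leukocyte, endothelial and adipocyte markers each summed to under 1 FPKM in every library, at most 0.0917, 0.0207 and 0.252 FPKM, with PTPRC, CD3E, PECAM1, CDH5 and ADIPOQ at 0 reads. With a lone control, each difference is a difference from that 1 library.

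Both regulators, the quinone reductase gene NQO1 and the thioredoxin reductase gene TXNRD1 averaged 1.29 to 1.51 times their shControl level in the libraries labelled shUSP16, while HMOX1 and GCLM, which are also classical NRF2 targets, stayed near their shControl level and OSGIN1 was lower. In bulk RNA, fewer cells of a kind and less RNA per cell cannot be told apart. On the log2(FPKM + 1) scale 7 of the 10 genes were higher in both libraries than in shControl and 2 were lower in both. Among all 13852 genes tested, those averaging 1 FPKM or more, 44.9% were higher in both and 32.4% lower in both, and among the 7639 genes averaging 5 FPKM or more, as 8 of the 10 do, the shares were 58.2% and 21.8%. Among protein-coding genes they were 50.2% and 28.2%, and with median-of-ratios scaling 44.7% and 32.4%. With equal sums of reads 5 of the 10 were higher in both (31.3% of all genes) and 3 lower in both (45.4%). The count of 7 is thus not far above these shares. The median log2 difference of the 10 genes was 0.15 in shUSP16-1 and 0.24 in shUSP16-2, beside 0.041 and 0.043 over all genes tested. That background was larger among the 7639 genes averaging 5 FPKM or more, at 0.10 (shUSP16-1) and 0.12 (shUSP16-2). limma called 0 of the 10 genes at an adjusted p under 0.05, as it called 0.00% of all genes, and again 0 of the 10 when fitted on protein-coding genes, of which it called 0.434%. At an unadjusted p under 0.05 there were 4 of the 10, all higher, where limma had 14.5% of all genes in either direction and 8.71% higher. Fitted on the 7639 genes averaging 5 FPKM or more, limma had 1462 of them under 0.05 unadjusted, in either direction. voom, the limma method for counts, called 1 of the 10, TXNRD1, with the authors' totals and with sums of reads; it called 2.51% and 4.02% of all genes under these totals, 1.47% and 1.00% higher.

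**Figure D1:**
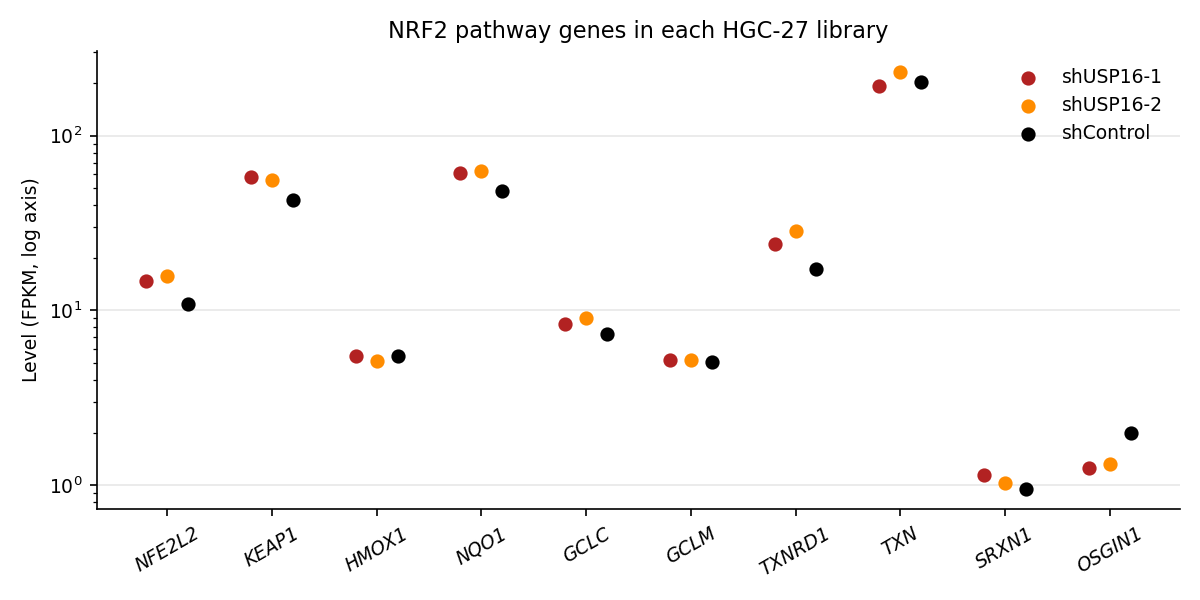
Level of each of the 10 genes in FPKM (log axis) in shUSP16-1, shUSP16-2 and shControl, 1 point per library. The shUSP16 points of NFE2L2, KEAP1, NQO1 and TXNRD1 lie above their shControl point, those of OSGIN1 lie below it, and the levels run from 0.956 FPKM for SRXN1 to 232 FPKM for TXN.

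Levels differed far more between the genes than between the libraries. TXN was the most abundant and made up 51.7%, 55.8% and 59.1% of the summed FPKM of the 10 genes in shUSP16-1, shUSP16-2 and shControl. NQO1 came next in each of the 3 libraries, followed by KEAP1, TXNRD1, NFE2L2 and GCLC. HMOX1 and GCLM could not be ordered, since their FPKM ranges over the 3 libraries overlapped, and OSGIN1 and SRXN1 were lowest. The summed level without TXN was 179 FPKM in shUSP16-1, 184 FPKM in shUSP16-2 and 140 FPKM in shControl.

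Promoter sequence is shown for the 3 genes whose window around the start site holds the core of an antioxidant response element. They are TXNRD1 and KEAP1, whose FPKM was above shControl in both libraries, and GCLM, which stayed near it. limma called none of them. Windows are from RefSeq on GRCh38.p14 and run from 250 bases before to 50 bases after an annotated start; 9 of the 10 genes had at least 1 window, 12 windows in all. The letters searched were TGACNNNGC on both strands, and matches are in capitals. TXNRD1 has 2 annotated starts, and both windows hold a match, the first from -99 to -91 (TGACTTCGC) and from -8 to 1 on the other strand (TGACGGAGC), the second from -102 to -94 on the other strand (TGACAAAGC), counted with the start base as 1 and the base before it as -1. KEAP1 holds TGACACGGC from -54 to -46 and TGACTAAGC on the other strand from -31 to -23 at 1 of its 2 starts. GCLM holds that same TGACTAAGC on the other strand, from -34 to -26.
TXNRD1 first window, chr12:104215529-104215828, plus strand: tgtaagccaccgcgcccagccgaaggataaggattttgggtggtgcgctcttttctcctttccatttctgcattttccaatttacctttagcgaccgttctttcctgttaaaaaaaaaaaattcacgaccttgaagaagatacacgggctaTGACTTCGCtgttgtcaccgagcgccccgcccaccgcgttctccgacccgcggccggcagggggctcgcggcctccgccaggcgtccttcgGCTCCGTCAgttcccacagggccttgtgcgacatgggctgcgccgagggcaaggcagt
TXNRD1 second window, chr12:104286782-104287081, plus strand: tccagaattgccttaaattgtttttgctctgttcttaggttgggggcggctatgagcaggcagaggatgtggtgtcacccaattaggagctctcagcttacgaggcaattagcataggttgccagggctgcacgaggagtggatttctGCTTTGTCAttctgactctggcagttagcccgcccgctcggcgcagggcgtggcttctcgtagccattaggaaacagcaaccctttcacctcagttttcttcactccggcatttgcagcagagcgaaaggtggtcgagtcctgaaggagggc
KEAP1, chr19:10502722-10503021, minus strand: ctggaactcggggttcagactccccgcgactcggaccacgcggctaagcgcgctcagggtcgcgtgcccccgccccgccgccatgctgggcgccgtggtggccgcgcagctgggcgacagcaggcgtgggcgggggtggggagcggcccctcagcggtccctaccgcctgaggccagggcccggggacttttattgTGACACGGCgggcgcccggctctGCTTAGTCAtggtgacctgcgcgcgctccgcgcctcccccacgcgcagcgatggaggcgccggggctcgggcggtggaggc
GCLM, chr1:93909381-93909680, minus strand: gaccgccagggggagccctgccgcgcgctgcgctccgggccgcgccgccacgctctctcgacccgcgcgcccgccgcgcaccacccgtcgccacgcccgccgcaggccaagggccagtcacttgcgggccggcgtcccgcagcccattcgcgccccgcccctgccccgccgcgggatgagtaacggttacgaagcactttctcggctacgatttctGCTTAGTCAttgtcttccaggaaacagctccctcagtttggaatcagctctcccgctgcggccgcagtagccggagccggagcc
No match overlapped TGANTCA, the core of an AP-1 site, and among all 35116 windows of this length 13.3% held TGACNNNGC. A match is a description of these letters only, and nothing is drawn from it about NRF2 binding.

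NFE2L2 and KEAP1 are the transcription factor and its inhibitor. NFE2L2 (ENSG00000116044, chromosome 2 from 177227595 to 177392697 on the minus strand, GRCh38) was at 14.7 FPKM in shUSP16-1 (2619 reads), 15.6 FPKM in shUSP16-2 (2895 reads) and 10.9 FPKM in shControl (2124 reads). Both shUSP16 values were above the control, with a mean of 15.1 and an SD of 0.680 FPKM (n = 2). limma gave a log2 difference of 0.44 (SE 0.12, adjusted p = 0.292), short of the threshold. With the authors' scaling, 3.87% of genes tested had a log2(FPKM + 1) difference of at least 0.39 in both libraries. That value is the smaller of the 2 for NFE2L2. The genes tested include low ones, whose differences the added 1 FPKM shrinks, and no share among genes of like level was taken. Some exon bases of NFE2L2 are shared with other annotated genes, 54 with AGPS on the other strand and 1054 with AC019080.1 on the same strand. AGPS, a peroxisomal ether lipid synthesis gene, had 3052, 3474 and 2749 reads in shUSP16-1, shUSP16-2 and shControl, and AC019080.1 had 42, 42 and 75, so reads over the shared bases may have been assigned to either gene.

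KEAP1 (ENSG00000079999, chromosome 19 from 10486120 to 10503741 on the minus strand) was at 57.6 FPKM in shUSP16-1 (6478 reads), 55.5 FPKM in shUSP16-2 (6475 reads) and 42.7 FPKM in shControl (5223 reads). It was higher than the control in both, and limma gave a log2 difference of 0.40 (SE 0.11, adjusted p = 0.292). KEAP1 exceeded NFE2L2 per length by 3.93 times in shUSP16-1, 3.56 times in shUSP16-2 and 3.91 times in shControl. The mRNAs of the sensor and the factor thus stood higher in nearly the same proportion. The ratio within a library does not depend on how libraries were scaled. It does depend on the lengths, each the union of a gene's annotated exons, so such ratios between genes need not equal those of their transcripts. A gene-wide shift of scaling matters for the size of both differences: with sums of reads as totals the NFE2L2 ratios to shControl were 1.26 (95% interval 1.19 to 1.33) in shUSP16-1 and 1.32 (1.24 to 1.39) in shUSP16-2, and with the authors' totals 1.34 (1.27 to 1.42) and 1.43 (1.35 to 1.51). These intervals cover counting error only.

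**Figure D2:**
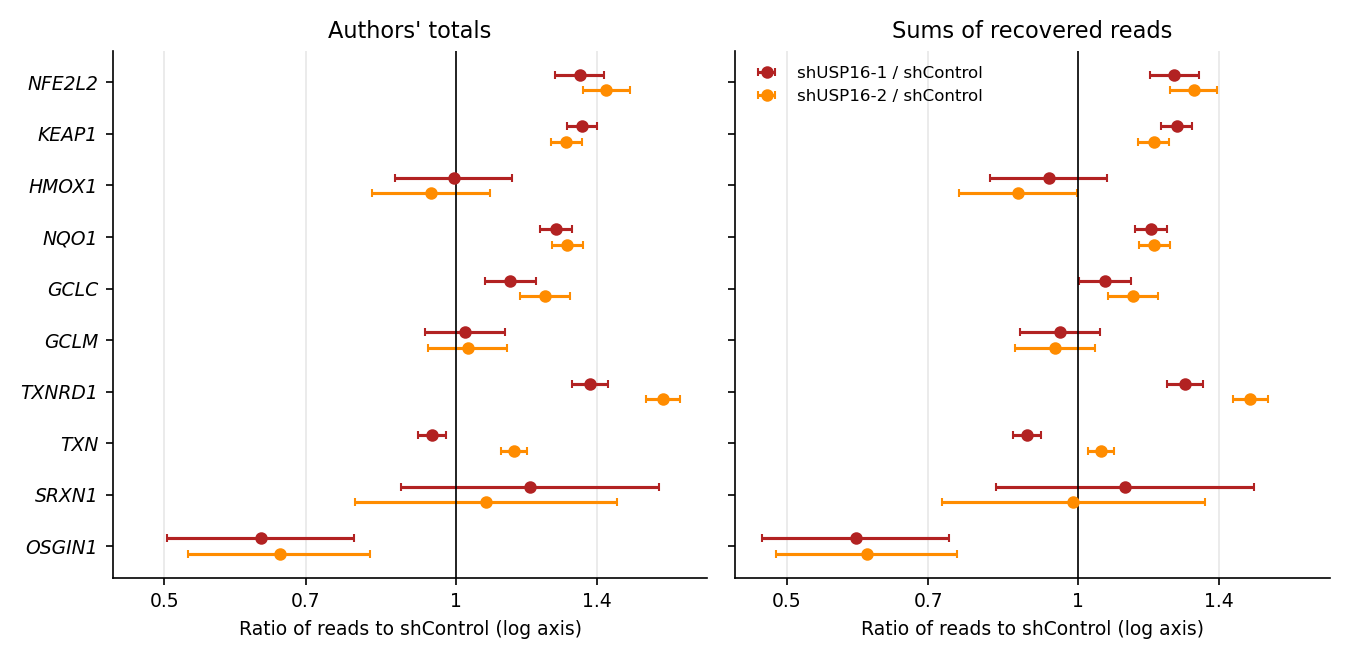
Ratio of reads to shControl (log axis) for each gene in shUSP16-1 and shUSP16-2, with exact binomial 95% intervals for counting error only, under the authors' totals (left panel) and under sums of recovered reads (right panel). The intervals of NFE2L2, KEAP1, NQO1, GCLC, TXNRD1 and OSGIN1 stay clear of 1 in both panels, while TXN lies on either side of 1 in the 2 libraries.

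NQO1 and HMOX1 are the target genes most often used as readouts of NRF2. NQO1, a cytosolic reductase that turns quinones into hydroquinones (ENSG00000181019, chromosome 16 from 69706996 to 69726951 on the minus strand), was at 61.2 FPKM in shUSP16-1, 62.8 FPKM in shUSP16-2 and 48.2 FPKM in shControl. Both shUSP16 values lay above the control, with a mean of 62.0 and an SD of 1.17 FPKM (n = 2). The log2 difference was 0.36 with an SE of 0.11 (limma adjusted p = 0.298). HMOX1, the inducible enzyme that breaks down haem to biliverdin, iron and carbon monoxide (ENSG00000100292, chromosome 22 from 35380361 to 35394214 on the plus strand), was at 5.45 FPKM in shUSP16-1, 5.16 FPKM in shUSP16-2 and 5.48 FPKM in shControl, from 392, 385 and 429 reads. The 3 values were close together, with a ratio to shControl of 0.995 (0.866 to 1.14) in shUSP16-1 and 0.942 (0.819 to 1.08) in shUSP16-2, and with sums of reads of 0.932 (0.811 to 1.07) and 0.867 (0.754 to 0.997). limma gave a log2 difference of -0.04 with an SE of 0.13 (adjusted p = 0.904), which does not show that the level was the same. NQO1 stood at 11.2 and 12.2 times the FPKM of HMOX1 in shUSP16-1 and shUSP16-2, against 8.79 times in shControl.

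GCLC and GCLM encode the catalytic and modifier subunits of glutamate-cysteine ligase, which carries out the rate-limiting step of glutathione synthesis. GCLC (ENSG00000001084, chromosome 6 from 53497341 to 53616970 on the minus strand) was at 8.32 FPKM in shUSP16-1, 9.04 FPKM in shUSP16-2 and 7.30 FPKM in shControl. Both shUSP16 values were above the control, with ratios of reads of 1.14 (1.07 to 1.21) and 1.24 (1.17 to 1.31), and limma did not call the gene (log2 difference 0.22, SE 0.13, adjusted p = 0.459). With sums of reads the ratio of shUSP16-1 was 1.07 (1.003 to 1.13), at the edge of counting error. GCLM (ENSG00000023909, chromosome 1 from 93885205 to 93909456 on the minus strand) was at 5.17 FPKM in shUSP16-1, 5.20 FPKM in shUSP16-2 and 5.05 FPKM in shControl, from 837, 873 and 891 reads. Its log2 difference was 0.03 with an SE of 0.13 (limma adjusted p = 0.922) and turned to -0.06 when libraries were scaled to equal sums of reads, so no direction can be given. In FPKM, the mRNA of the catalytic subunit exceeded that of the modifier subunit 1.61 times in shUSP16-1, 1.74 times in shUSP16-2 and 1.45 times in shControl. Amounts of the subunits themselves were not measured.

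TXNRD1, TXN and SRXN1 belong to the thioredoxin system, in which the selenoprotein thioredoxin reductase uses NADPH to reduce thioredoxin and sulfiredoxin repairs overoxidised peroxiredoxins. TXNRD1 (ENSG00000198431, chromosome 12 from 104215779 to 104350305 on the plus strand) was at 23.9 FPKM in shUSP16-1 (4790 reads), 28.4 FPKM in shUSP16-2 (5912 reads) and 17.3 FPKM in shControl (3788 reads). On the log2(FPKM + 1) scale it had the largest difference of the 10 genes in both libraries, though by ratio of reads OSGIN1 was farther from 1 in shUSP16-1, and with sums of reads in both. shUSP16-2 was also 1.19 times (1.15 to 1.24) as high as shUSP16-1. Ratios to shControl were 1.38 (1.32 to 1.44) in shUSP16-1 and 1.64 (1.57 to 1.71) in shUSP16-2. With the authors' scaling, 2.71% of genes tested had a log2(FPKM + 1) difference of at least 0.44 in both libraries. That value is the smaller of the 2 for TXNRD1. As for NFE2L2, the share is over genes of all levels tested, low ones included. The limma log2 difference was 0.56 with an SE of 0.15 (adjusted p = 0.286). voom gave 0.59 with an SE of 0.14 with the authors' totals (adjusted p = 0.0296) and 0.48 with an SE of 0.13 with sums of reads (adjusted p = 0.0406), and over the other settings, all limma on log2(FPKM), the adjusted p ran from 0.0965 to 0.404. The promoter windows printed above for TXNRD1 lie at the first base of the gene and about the middle of its span; the table of genes does not tell transcripts from the 2 starts apart.

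TXN, thioredoxin itself (ENSG00000136810, chromosome 9 from 110243811 to 110256640 on the minus strand), did not follow its reductase. It was at 191 FPKM in shUSP16-1, 232 FPKM in shUSP16-2 and 202 FPKM in shControl, so the control lay between the 2 shUSP16 values. The limma log2 difference was 0.06 with an SE of 0.15 (adjusted p = 0.869), and it turned to -0.05 with equal sums of reads. Per length, TXN exceeded TXNRD1 8.004 times in shUSP16-1, 8.17 times in shUSP16-2 and 11.7 times in shControl. Its 7 named pseudogenes held only 12, 15 and 8 reads in shUSP16-1, shUSP16-2 and shControl. SRXN1 (ENSG00000271303, chromosome 20 from 646615 to 653370 on the minus strand) was low, at 1.14 FPKM in shUSP16-1, 1.03 FPKM in shUSP16-2 and 0.956 FPKM in shControl, from 92, 86 and 84 reads. The intervals of its ratio, 0.878 to 1.62 in shUSP16-1 and 0.787 to 1.47 in shUSP16-2, both included 1, so no difference was detectable at this depth (limma adjusted p = 0.872). SRXN1 shares 2292 of its 2698 exon bases, on the same strand, with the overlapping gene model AL121758.1. That model had 3, 0 and 4 reads in shUSP16-1, shUSP16-2 and shControl. How reads over shared bases were counted is not stated. The low SRXN1 level may thus come in part from counting, which was not tested.

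OSGIN1, a growth inhibitor gene induced by oxidative stress, was the one gene of the 10 whose intervals lay below 1 in both libraries with the authors' totals. OSGIN1 (ENSG00000140961, chromosome 16 from 83948282 to 83966332 on the plus strand) was at 1.26 FPKM in shUSP16-1 (130 reads), 1.31 FPKM in shUSP16-2 (141 reads) and 2.00 FPKM in shControl (225 reads). Both shUSP16 values were below the control and close to each other. Ratios were 0.629 (0.503 to 0.785) and 0.658 (0.529 to 0.816), and the limma log2 difference was -0.39 with an SE of 0.20 (adjusted p = 0.413). Of all genes tested, 5.44% were, in both libraries, at least as low as -0.37, the weaker of the 2 log2(FPKM + 1) differences of OSGIN1. At this low level the added 1 FPKM shrinks the difference, and voom, which works on reads, gave -0.63 with an SE of 0.30 (adjusted p = 0.251). OSGIN1 shares 481 exon bases with AC009119.2, which had 3, 9 and 10 reads in shUSP16-1, shUSP16-2 and shControl.

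**Figure D3:**
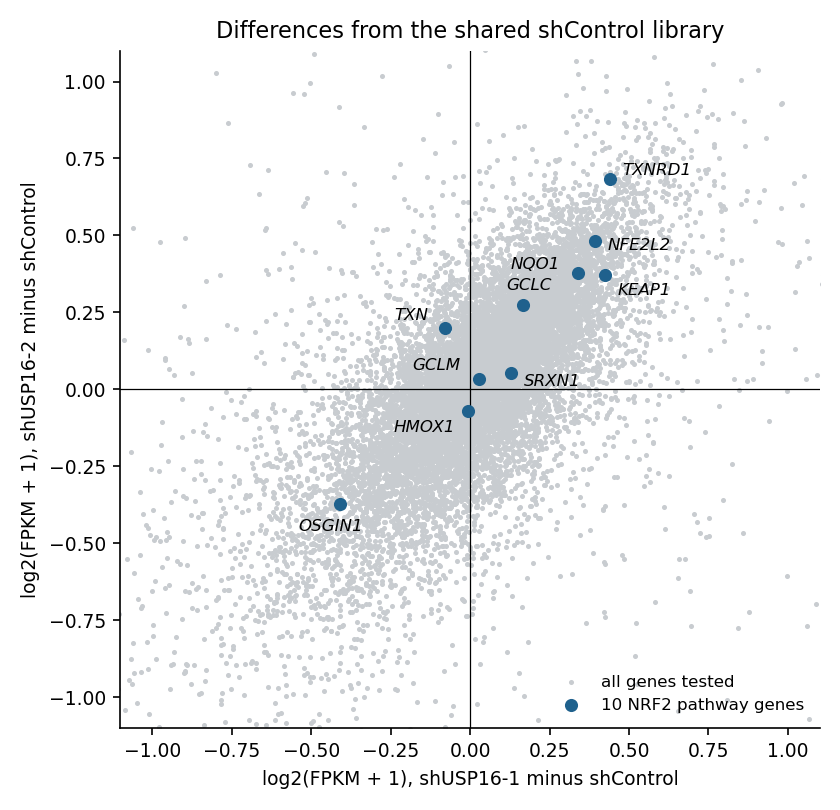
Difference of log2(FPKM + 1) from shControl in shUSP16-1 (x axis) and shUSP16-2 (y axis) for all genes tested (grey) and the 10 genes (blue, named); genes beyond 1.1 on either axis are outside the frame. Both axes share the shControl library; TXNRD1 lies at 0.44 and 0.68, OSGIN1 at -0.41 and -0.37, and TXN at -0.08 and 0.20.

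Other genes of the pathway, 112 in 7 lists, were read beside the 10. Of the 90 tested, 59 were higher in both libraries and 15 lower in both, beside 44.9% and 32.4% of all genes. Among genes averaging 5 FPKM or more, the shares were 58.2% and 21.8%. The median log2 difference of the 90 was 0.16, against 0.042 over all genes tested and 0.11 over genes averaging 5 FPKM or more. limma called 0 of the 90, with 19 at an unadjusted p under 0.05, of which 17 were higher, where all genes had 14.5% under it and 8.71% higher. Fitted on the 7639 genes averaging 5 FPKM or more, limma had 1462 of them under 0.05 unadjusted, in either direction. voom with the authors' totals called 3 higher (DPP3, ABCC4 and TFRC) and 2 lower (TXNIP and AKR1C1), where it called 1.47% of all genes higher and 1.04% lower; with sums of reads it called TFRC higher and TXNIP and AKR1C1 lower, where it called 3.02% of all genes lower. Scaled to equal sums of reads, 44 of the 90 were higher in both and 20 lower in both, beside 31.3% and 45.4% of all genes.

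Among regulators and partners of NRF2, 13 of 17 tested genes were higher in both libraries and 1 was lower in both. Over all genes tested these shares were 44.9% and 32.4%. With equal sums of reads 10 of the 17 were higher in both and 2 lower in both, beside 31.3% and 45.4%. NFE2L1, a related factor that controls proteasome genes, was at 39.0 and 37.9 FPKM in shUSP16-1 and shUSP16-2, against 28.4 FPKM in shControl. DPP3, a peptidase that competes with NRF2 for KEAP1, was at 15.8 and 17.1 FPKM in the shUSP16 libraries and 11.1 FPKM in shControl, and voom with the authors' totals called it higher (adjusted p = 0.0431; 0.0727 with sums of reads). RBX1, the RING subunit of the CUL3 ligase, was at 20.3 and 22.6 FPKM in the shUSP16 libraries and 16.6 FPKM in shControl. EP300, an acetyltransferase coactivator, and DPP9, a peptidase, had log2 differences of 0.37 and 0.33 and were not called by limma or voom.

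Of 24 genes of the glutathione system, 12 were higher in both and 6 lower in both, beside 44.9% and 32.4% of all genes. GSR, which regenerates reduced glutathione, was at 41.2 and 44.3 FPKM in the shUSP16 libraries and 33.9 FPKM in shControl. SLC3A2, the heavy chain of the cystine carrier, was at 101 and 95.95 FPKM in the shUSP16 libraries, against 79.5 FPKM in shControl. GLRX3 and GLRX5, glutaredoxins of iron-sulfur cluster handling, had log2 differences of 0.50 and 0.35. The most abundant members, GSTP1, a glutathione transferase, and GPX4, which reduces lipid peroxides, were at 0.18 and 0.09. With equal sums of reads 7 of the 24 were higher in both and 8 lower in both, so this list has no clear side.

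In the thioredoxin and peroxiredoxin list 11 of 15 genes were higher in both libraries and 3 lower in both. Over all genes tested these shares were 44.9% and 32.4%. With equal sums of reads 8 of the 15 were higher in both and 4 lower in both, beside 31.3% and 45.4%. PRDX1, a cytosolic peroxidase that thioredoxin keeps reduced, was at 156 and 175 FPKM in shUSP16-1 and shUSP16-2, against 123 FPKM in shControl. PRDX3, its mitochondrial relative, was at 33.7 and 36.5 FPKM in the shUSP16 libraries and 26.9 FPKM in shControl. TXNIP, which binds and inhibits thioredoxin, had the largest difference on the low side of this list on the log2(FPKM + 1) scale, at 12.7 and 21.0 FPKM in the shUSP16 libraries, against 29.9 FPKM in shControl. voom called TXNIP lower (adjusted p = 0.0211 with the authors' totals and 0.00128 with sums of reads), limma did not (log2 difference -0.83, SE 0.29, adjusted p = 0.319), and the difference was -1.17 in shUSP16-1 alone and -0.49 in shUSP16-2 alone. The most abundant peroxiredoxin, PRDX5, had a log2 difference of 0.12. MSRB3, a methionine sulfoxide reductase, was at 0.29.

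All 6 enzymes listed for NADPH supply, which feeds both glutathione and thioredoxin reductase, were higher in both libraries, also with equal sums of reads. Of all genes tested, 44.9% were higher in both, and 31.3% with equal sums of reads. PGD, of the oxidative pentose phosphate pathway, was at 93.6 and 89.3 FPKM in the shUSP16 libraries, against 67.1 FPKM in shControl. TKT and TALDO1, of the non-oxidative branch, had log2 differences of 0.34 and 0.19. limma and voom called 0 of the 6 in any of the fits above, with 1 of the 6, PGD, at an unadjusted p under 0.05 in limma. Of 6 tested genes for superoxide and peroxide removal, 3 were higher in both and 0 lower in both. Over all genes tested these shares were 44.9% and 32.4%. With equal sums of reads 3 of these 6 were higher in both and 1 was lower in both, beside 31.3% and 45.4%. SOD1, the cytosolic superoxide dismutase, was at 96.4 and 101 FPKM in the shUSP16 libraries and 81.0 FPKM in shControl, PARK7 at 91.5 and 93.2 FPKM, against 75.2 FPKM, and SOD2, the mitochondrial enzyme, had a log2 difference of 0.13.

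**Figure D4:**
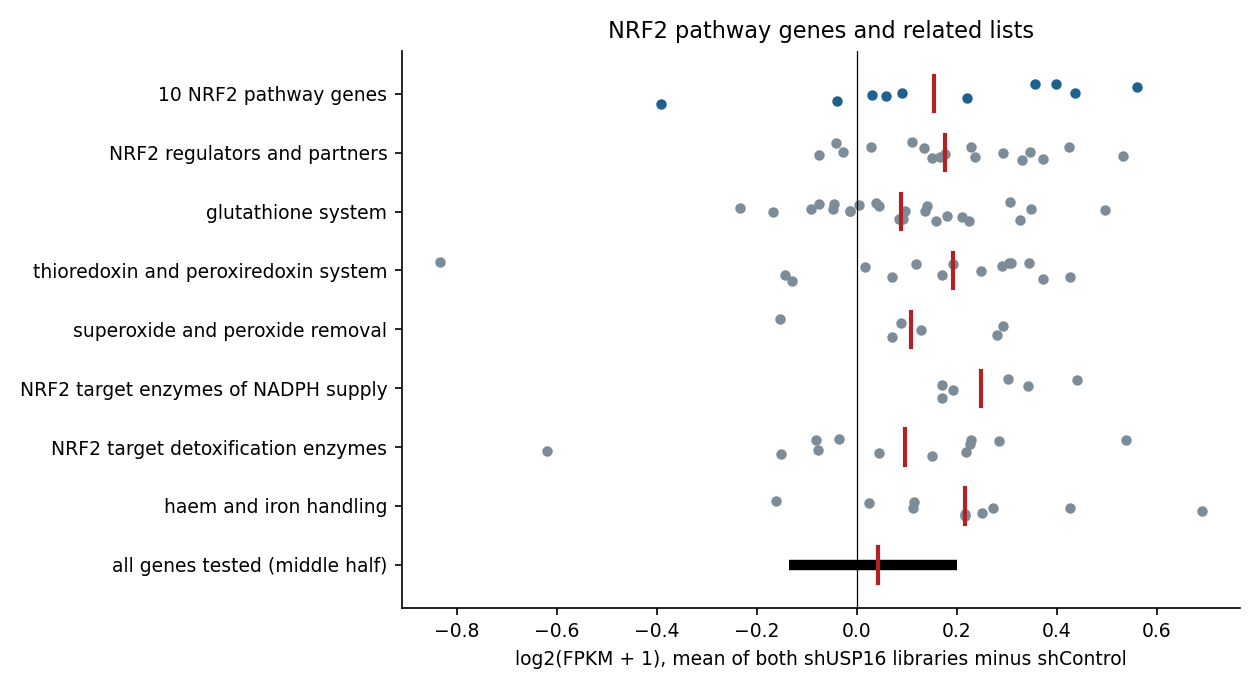
Difference of log2(FPKM + 1) between the mean of both shUSP16 libraries and shControl for the 10 genes and for each tested gene of the 7 other lists, 1 point per gene with random vertical offsets, and the median of each list in red. The bar at the bottom spans the interquartile range of all genes tested. The medians run from 0.09 (glutathione system) to 0.25 (NADPH supply), beside 0.042 for all genes, and TXNIP lies farthest left. Over genes averaging 5 FPKM or more, a group not drawn, the median was 0.11.

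Among detoxification enzymes and transporters, 6 of 12 tested genes were higher in both libraries and 4 lower in both, near the 44.9% and 32.4% of all genes. ABCC4, an efflux pump for organic anions, was at 3.96 and 4.15 FPKM in the shUSP16 libraries, against 2.48 FPKM in shControl; voom called it higher with the authors' totals (adjusted p = 0.0354) and not with sums of reads (adjusted p = 0.0519). AKR1C1, an aldo-keto reductase that is a widely used NRF2 target in human cells, was at 1.08 and 0.891 FPKM in the shUSP16 libraries, against 2.05 FPKM in shControl, and voom called it lower (adjusted p = 0.0172 and 0.00333). AKR1C1 shares sequence with near-identical relatives, so its own reads are uncertain; AKR1C1 to AKR1C4 summed to 380 and 306 reads in the shUSP16 libraries and 755 reads in shControl, ratios of 0.548 and 0.426. EPHX1 and PIR had log2 differences of 0.23 and 0.28, and CBR1, the most abundant after EPHX1, of -0.04.

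For haem and iron handling, 8 of 10 tested genes were higher in both libraries and 1 was lower in both, beside 44.9% and 32.4% of all genes. With equal sums of reads 5 of the 10 were higher in both and 1 was lower in both, beside 31.3% and 45.4%. TFRC, the transferrin receptor that brings in iron, was at 30.4 and 34.3 FPKM in shUSP16-1 and shUSP16-2, against 19.6 FPKM in shControl, and voom called it higher with both totals (adjusted p = 0.00880 and 0.00730), limma not (log2 difference 0.69, SE 0.13, adjusted p = 0.272). HMOX2, the constitutive haem oxygenase, was at 6.25 and 6.52 FPKM in the shUSP16 libraries and 4.49 FPKM in shControl. BLVRA, which reduces biliverdin, was at 37.0 and 35.1 FPKM in the shUSP16 libraries, against 29.7 FPKM in shControl. The ferritin chains that store iron were FTL, at 490 and 572 FPKM in the shUSP16 libraries and 489 FPKM in shControl, and FTH1, at 125 and 131 FPKM in the shUSP16 libraries and 107 FPKM in shControl. Summed with their named pseudogenes, which can share reads, the ratios to shControl were 1.002 and 1.17 for FTL and 1.16 and 1.22 for FTH1.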

How the data were processed

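Libraries were grouped by their titles. The authors deposited FPKM values for 58735 genes, 1 column per library, per the file headers. The aligner, counting tool and strand setting are not stated in any label or header read here. Mouse builds, GRCm38 and mm10, stand in the submitters' processing notes; every one of the 58735 gene IDs and coordinates equals that of human GENCODE on GRCh38, and each deposited gene length equals the union of that gene's exons. FPKM times length was a whole multiple of 1 step per library for 100% of values (tolerance 0.01 reads), which gave reads; library totals behind the deposited values came to 1.01, 0.994 and 1.08 times the summed reads in shUSP16-1, shUSP16-2 and shControl. Reads of shUSP16-1 and shUSP16-2 differed by a chi-square per degree of freedom of 11.9 over 20974 genes, so they were entered as 2 libraries.

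limma 3.58.1 (R 4.3.3) with a mean trend was fitted on log2(FPKM + 1) over the 13852 genes averaging 1 FPKM or more, adjusted by Benjamini-Hochberg, at 0.05. The spread comes from the libraries labelled shUSP16, with 1 residual degree of freedom, and the lone shControl library is assumed to vary like them. An exact permutation test over 3 libraries cannot go below a p of 0.333. voom was run on recovered reads, with the authors' totals or sums of reads. On simulated data with known changes, limma on log2(FPKM + 1) made more false calls than its threshold allows, and voom came close to it. The simulated reads had the same dispersion in every gene and library, the control included. The simulation therefore does not test the assumption about the lone control, nor show how many voom calls in these data are false. Ratios of reads have exact binomial 95% intervals.

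The members, lists and tests were chosen with earlier results of these data known. Named genes were the 10 members and USP16, and per list up to 4 genes with the largest weaker change on 1 side plus the 2 most abundant; 1 gene so chosen is not reported here. Python 3.11.15, scipy 1.17.1 and matplotlib 3.10.9 were used.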

Additional observations from a re-analysis of the deposited data

How the results depend on the processing

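Alternatives were filters on low values, a pseudocount of 0.1, other scalings, protein-coding genes only, no or a robust variance trend, voom, and leaving out a library labelled shUSP16. NFE2L2, KEAP1, NQO1, GCLC, TXNRD1 and SRXN1 stayed on the high side in each setting that tested them, and OSGIN1 and HMOX1 on the low side. With all 3 libraries the log2 differences of SRXN1 (0.038 to 0.18) and HMOX1 (-0.15 to -0.039) were small. Without shUSP16 replicate 2, HMOX1 was at -0.0056, near its shControl level. SRXN1 and OSGIN1 were not tested with a mean of at least 5 FPKM. Scaled to equal sums of reads, GCLM turned to -0.059 and TXN to -0.047 on the log2 scale, and with voom on sums of reads to -0.070 and -0.047; TXN was at -0.080 without shUSP16 replicate 2 and at 0.20 without shUSP16 replicate 1. The other rescaling, by median ratios, reversed neither. limma called 0 genes overall (2008 at an unadjusted p under 0.05); the count was 13 with a mean of at least 5 FPKM, 48 among protein-coding genes, 348 with voom on the authors' totals and 557 on sums of reads. Of the 10 genes, 1 was called with each of these voom fits, TXNRD1, and 0 with the other settings. Of the other lists, 5 genes were called with voom on the authors' totals and 3 on sums of reads. With a mean of at least 5 FPKM, 1 of the 8 genes left was lower in both and their median was 0.29, because 2 genes dropped out. The median over all genes in that setting was 0.11. With equal sums of reads the median of the 10 genes was 0.082, beside -0.048 over all genes tested. Leaving out 1 library labelled shUSP16 gave 0.15 to 0.24 for the 10 genes, beside 0.041 to 0.043 over all genes tested. Restricted to genes averaging 5 FPKM or more, that background ran from 0.10 to 0.12. Genes of the other lists lower in both were 24 with no filter, a setting that adds genes averaging under 1 FPKM. Leaving out 1 library gave 19 to 27 that were lower in the library left, where a gene need be lower in only 1 library. The causes of the other moves were not tested. No paired analysis was possible because shControl has 1 library, and its title holds no number that would pair it with a library labelled shUSP16. Few reads limit SRXN1 and OSGIN1, which rest on 84 to 92 and 130 to 225 reads per library. For SRXN1 the exon bases shared with another gene model may also lower the count, which was not tested.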
